A study of Homo sapiens with 9 samples.

Results

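The 9 enzymes that carry carbon from acetyl-CoA to squalene epoxide were followed here at the mRNA level: ACAT2, HMGCS1, MVK, PMVK, MVD, IDI1, FDPS, FDFT1 and SQLE. The genes were taken by symbol from the RNA sequencing table, which held all 9 among its 48162 genes, and all 9 passed the filter on low counts, which left 15776 genes. The cells were SKMEL28, an established human melanoma line with mutant BRAF, grown in DMEM with 5% FBS and transduced with lentiviral pLKO.1 short hairpins. The shCont cells carried a hairpin against GFP, the shp16 cells a hairpin against the cell cycle inhibitor p16, and the shp16+shATR cells hairpins against p16 and the DNA damage kinase ATR. All 3 groups were selected in puromycin at 1 µg/ml for 3 days, so the hairpin virus and the selection were common to the controls as well. Each group had 3 libraries, which the study describes as technical replicates of 1 experiment, so all p-values cover only the spread between these libraries. The hairpin against ATR that was used for sequencing and any control virus given to the shp16 cells are not stated. The series was designed to compare transcription after loss of p16 alone and of p16 with ATR, and the 3 comparisons below follow that design.

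The mevalonate pathway joins acetyl-CoA units into mevalonate, phosphorylates mevalonate stepwise and decarboxylates it to the isoprene unit isopentenyl diphosphate. Isoprene units are then condensed to farnesyl diphosphate, which stands at a branch: it can be used to prenylate proteins and to make dolichol, ubiquinone and haem side chains, or it can be joined head to head to squalene, the first compound committed to sterols. The transcription factor SREBP2, encoded by SREBF2, is known to turn on most genes of the route when membrane sterol runs low, and INSIG1 is known to hold it back when sterol is plentiful.

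Total counts ran from 17314662 to 23588174 per library. The library labelled shCont replicate 1 stood apart from the other shCont libraries: ATR was at 45.9 CPM (TMM-normalized counts scaled to 1e6 per library) against 93.5 and 96.4 in shCont replicates 2 and 3, close to the 39.9 to 41.0 of the shp16+shATR libraries. CDKN2A, the gene of p16, which also encodes a second protein counted in the same row, was at 162 CPM in that library against 113 and 103 in the others. It was at 78.1 to 99.9 CPM in shp16, a log2 fold change of -0.48 that did not pass the test (adjusted p = 0.0723, edgeR) and that was -0.26 without shCont replicate 1 (adjusted p = 0.0681), while ATR fell by 1.12 on the log2 scale from shp16 to shp16+shATR (adjusted p = 0.0128). In shp16+shATR against shCont, CDKN2A was called lower, at -0.57, and at -0.35 without shCont replicate 1 (adjusted p = 0.0154, edgeR). The fold change of each enzyme from shCont to shp16 is therefore also given without shCont replicate 1. Other values that depend on that library are given without it only in part, and the FPKM sums include it. The 6 melanocyte markers summed to 12448 to 14336 CPM in shCont cells, 6856 to 12220 in shp16 cells and 10234 to 12385 with both hairpins. The low end in shp16 was replicate 1, where PMEL was at 3258 CPM against 7839 and 7763 in shp16 replicates 2 and 3. Of the 6 markers only S100B passed a test, as lower in shp16 than in shCont (log2 fold change -0.68, adjusted p = 0.0130, edgeR) and higher in shp16+shATR than in shp16 (0.67, adjusted p = 0.0254). The 6 markers of other cell types present in the table summed to 0.565 to 0.972, 5.77 to 6.53 and 3.07 to 6.92 CPM in the 3 groups, with KRT5 at 0 in all shCont libraries and PTPRC at 0 in all 9. The keratins KRT5 and KRT14 were called higher in shp16 than in shCont (adjusted p = 0.00123 and 0.000388, edgeR), and both of these and DCN in shp16+shATR than in shCont (adjusted p = 0.00184, 0.000331 and 0.0266), each at no more than 2.99 CPM in any library. The part of these cells or of the melanocyte markers in the results below was not tested. In bulk RNA, fewer cells of a type and less RNA per cell cannot be told apart.

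mRNA of the route was higher in shp16 than in shCont cells and higher again in shp16+shATR cells, with PMVK as the exception in every comparison. From shCont to shp16, HMGCS1, MVK, SQLE, FDPS, ACAT2 and FDFT1 rose, and MVD, IDI1 and PMVK did not pass the test. From shp16 to shp16+shATR, FDPS, SQLE, IDI1, ACAT2 and FDFT1 rose, and MVD, HMGCS1, MVK and PMVK did not pass. From shCont to shp16+shATR all but PMVK rose, by 0.81 (FDFT1) to 1.74 (SQLE) on the log2 scale. Without shCont replicate 1 these were 0.91 for FDFT1 and 1.65 for SQLE. The test was edgeR's quasi-likelihood test with Benjamini-Hochberg adjustment over the 15776 genes and a threshold of 0.05 on the adjusted p.

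In numbers, 6 of 9 were called higher and 0 lower in shp16 against shCont, where 14.8% of all genes tested were called, 7.23% as higher and 7.59% as lower. The corresponding counts were 5 and 0 of 9 in shp16+shATR against shp16, with 6.22% of all genes called, 2.73% and 3.49% by direction, and 8 and 0 of 9 in shp16+shATR against shCont, with 23.6% of all genes called, 10.9% and 12.7% by direction. The median log2 fold change of the 9 was 0.67, 0.60 and 1.21 in the 3 comparisons, and the median of all genes tested lay between -0.02 and 0.00. On the CPM scale, 8 of 9 genes in the first 2 comparisons were higher in every library of the second group than in any of the first, which was true of 16.8% and 17.6% of all genes. On the FPKM scale the counts were 7 and 8, since IDI1 overlapped between shCont and shp16. The comparisons share libraries and are not independent of each other. Without shCont replicate 1 the counts called higher were 8 of 9 in each comparison, with PMVK as the gene that did not pass. In that fit the share of all genes called higher also went up, to 13.4%, 8.94% and 15.9%.

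**Figure D1:**
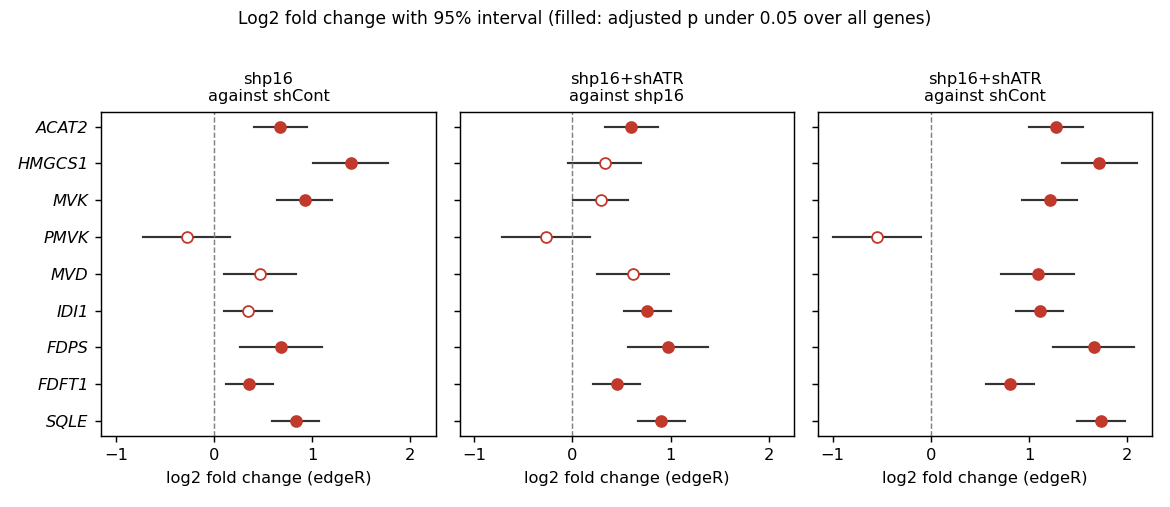
Log2 fold change of each enzyme gene in the 3 comparisons (x axis, log2 scale, edgeR, bars are 95% intervals, filled points have an adjusted p under 0.05 over all genes tested). PMVK lies left of 0 in all 3 panels and the other 8 lie right of it, from 0.29 (MVK, shp16+shATR against shp16) to 1.74 (SQLE, shp16+shATR against shCont).

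Since these genes moved together, the stretches before their transcription starts were read for letters that known regulators of the route bind. RefSeq promoters on GRCh38.p14, 250 bases before to 50 after each start, were given for 6 of the 9 genes, with 9 starts in all, and ACAT2, FDFT1 and SQLE had no entry. The box CCAAT, the letters bound by NF-Y, was searched on both strands (as CCAAT or ATTGG) and lay in 6 of the 9 starts, from 5 of the 6 genes, against 34.6% of 35116 promoters of the same length. PMVK was the gene without it. HMGCS1 had 2 copies, MVD, IDI1 and FDPS had 3 and MVK had 5 at the start with most copies, while another start of HMGCS1 and of IDI1 had 0. Of all promoters, counted singly and not by the best start of a gene, 10.8% held 2 or more copies and 3.26% held 3 or more. The stretches that span these copies are shown because they hold 2 or more copies in each of the 5 genes, written in the direction of transcription with each copy of the box in capitals and 10 bases on either side:
HMGCS1, chr5:43313498-43313577, minus strand: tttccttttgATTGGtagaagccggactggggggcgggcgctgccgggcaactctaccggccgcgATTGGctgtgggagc
MVK, chr12:109573574-109573762, plus strand: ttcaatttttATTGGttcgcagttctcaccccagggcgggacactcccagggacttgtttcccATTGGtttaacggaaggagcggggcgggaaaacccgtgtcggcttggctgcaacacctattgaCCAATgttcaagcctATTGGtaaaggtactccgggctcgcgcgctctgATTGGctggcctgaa
MVD, chr16:88663162-88663260, minus strand: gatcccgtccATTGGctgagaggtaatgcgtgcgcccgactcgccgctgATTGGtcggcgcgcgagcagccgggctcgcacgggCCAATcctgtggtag
IDI1, chr10:1048959-1049028, minus strand: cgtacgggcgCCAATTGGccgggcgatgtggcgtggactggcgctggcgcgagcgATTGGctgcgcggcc
FDPS, chr1:155308680-155308829, plus strand: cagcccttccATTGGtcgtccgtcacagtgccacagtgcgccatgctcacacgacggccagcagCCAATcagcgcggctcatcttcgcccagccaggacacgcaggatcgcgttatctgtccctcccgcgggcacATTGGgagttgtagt

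The copies lay 155 and 100 bases before the start in HMGCS1 and 159, 120 and 85 bases before it in MVD. In IDI1 they lay 132, 129 and 87 bases before the start, where the first 2 share letters. FDPS had them 176, 122 and 51 bases before the start, and MVK had them 210, 157, 94, 79 and 46 bases before it. GGGCGG, the letters bound by Sp1, searched on both strands like the motifs that follow, lay in 9 of 9 starts against 45.0% of all promoters, PMVK included. One written form of the sterol regulatory element, TCACNCCAC, was in 0 of 9 starts and in 1.13% of all promoters, and the palindrome CACGTG was in 0 of 9 and in 7.26%. A match is a description of letters, and the absence of these exact letters from this window says nothing of the factor.

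**Figure D2:**
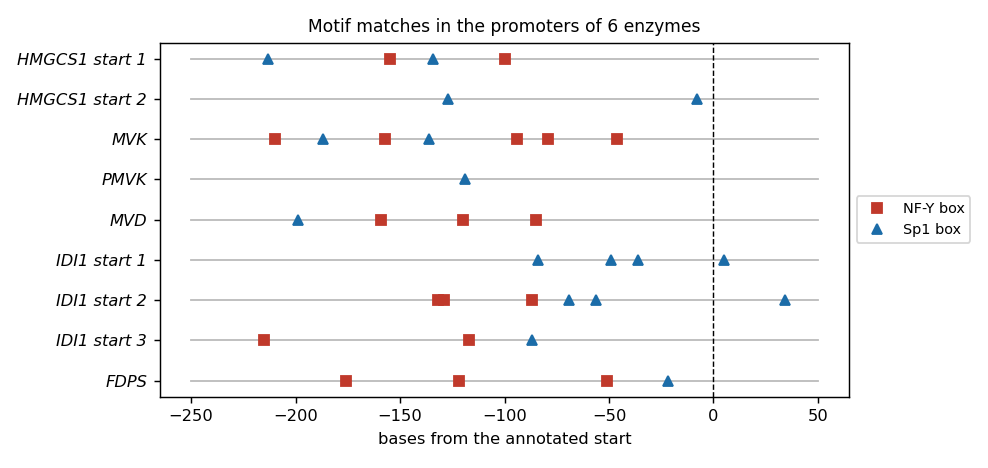
Motif matches in the promoters of 6 enzymes (x axis, bases from the annotated start, 1 row per annotated start, 9 rows from 6 genes). Matches to CCAAT (squares) sit upstream of the start in 6 of the rows and are missing from PMVK and from 1 of the starts of HMGCS1 and of IDI1, while GGGCGG (triangles) is present in all 9.

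The levels of the 9 mRNAs were compared with each other per length, as FPKM (fragments scaled for gene length and library total). FDFT1 was the most abundant in each group, at 124 FPKM in shCont rising to 158 in shp16 and 217 in shp16+shATR, and FDPS the least, at 3.53, 5.61 and 11.1 FPKM. The level of FDPS is uncertain for the reasons given with that gene below. In shCont, PMVK, SQLE and IDI1 followed FDFT1 at 25.4, 23.6 and 22.4 FPKM, with libraries that overlapped between neighbours in this order. MVD and ACAT2 overlapped at 14.4 and 12.9, and HMGCS1 and MVK at 8.21 and 7.27. In shp16, SQLE at 41.6 and IDI1 at 28.5 came after FDFT1. SQLE stood clear of its neighbours, while the lowest IDI1 library, at 23.44, lay only just above the highest of HMGCS1, at 23.35. HMGCS1, PMVK, ACAT2 and MVD at 21.3, 21.0, 20.5 and 20.1 FPKM could not be ordered, and MVK lay below them at 13.8. In shp16+shATR the order was FDFT1, SQLE at 78.3, IDI1 at 48.3, ACAT2 and MVD overlapping at 31.3 and 30.9, HMGCS1 at 26.8, PMVK and MVK overlapping at 17.5 and 16.9, and FDPS.

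PMVK was at 34.1, 21.6 and 20.6 FPKM in the shCont libraries, and without shCont replicate 1 its mean of 21.1 lay below SQLE and IDI1 at 25.5 and 22.8. The FPKM of the 9 summed to 242 ± 17.1 for shCont, 330.5 ± 9.94 for shp16 and 478 ± 4.35 for shp16+shATR (SD, n = 3), and no libraries of different groups overlapped in this sum. FDFT1 alone made up 50.5 to 52.1% of the sum with shCont, 47.3 to 48.3% with shp16 and 44.8 to 45.8% with both hairpins. These shares did not overlap between groups. For the sum, an exact two-sided permutation test gave p = 0.1 in each comparison, the smallest that 3 libraries against 3 allow.

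**Figure D3:**
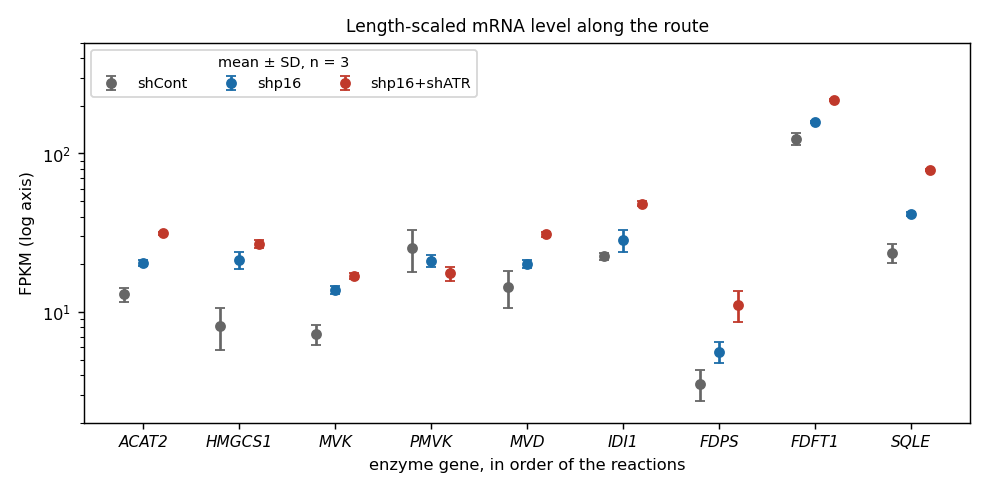
Mean FPKM of each enzyme gene in the 3 groups (y axis, log scale, bars are the SD of 3 libraries), with genes in the order of their reactions on the x axis. FDFT1 is highest in each group and FDPS lowest, and the group means go up from shCont to shp16 to shp16+shATR at every gene except PMVK, where the order is turned.

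ACAT2 (ENSG00000120437, chromosome 6, 160181360 to 160200144, plus strand) encodes the cytosolic thiolase that joins acetyl-CoA units into acetoacetyl-CoA. It was at 47.7, 36.1 and 39.6 CPM in the shCont libraries, at 72.7, 63.3 and 60.9 in shp16, and at 98.3, 99.9 and 100.5 in shp16+shATR. The 3 groups did not overlap and stood in that order. ACAT2 rose by 0.67 ± 0.12 (log2 fold change ± SE) from shCont to shp16 (adjusted p = 0.00377, edgeR) and by a further 0.60 ± 0.12 with shATR (adjusted p = 0.0145). Without shCont replicate 1 the first of these was 0.79 (adjusted p = 8.38e-05, edgeR). The second call was lost without any 1 of shp16 replicates 2 and 3 and the 3 shp16+shATR libraries, at adjusted p values of 0.0668 to 0.081. ACAT2 overlaps TCP1 and SOD2 on the other strand, over 615 and 2202 bases. Whether the counting used strand is not stated, so reads of the shared bases may be assigned to either. SOD2 moved the other way from shCont to shp16, by -0.41 (adjusted p = 0.0333, edgeR), and TCP1 was at 0.07 (adjusted p = 0.728). ACAT1, the mitochondrial thiolase outside the route, was at -0.05 and 0.02 in the same 2 comparisons and did not pass in either.

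HMGCS1 (ENSG00000112972, chromosome 5, 43289497 to 43313614, minus strand) encodes the cytosolic synthase that condenses acetoacetyl-CoA with acetyl-CoA to make HMG-CoA. It was at 19.6, 32.1 and 34.0 CPM in shCont, 68.6, 79.8 and 75.8 in shp16, and 92.0, 98.3 and 91.2 in shp16+shATR. All shp16 libraries lay above all shCont libraries, and the lowest shCont library was replicate 1. HMGCS1 rose by 1.39 ± 0.17 from shCont to shp16 (adjusted p = 0.000344, edgeR), and by 1.17 without shCont replicate 1 (adjusted p = 1.92e-06). With shATR added the log2 fold change was 0.33 ± 0.17, with a 95% interval of -0.04 to 0.70 and an adjusted p of 0.315 (edgeR), although the libraries did not overlap. This difference passed without shCont replicate 1, at the same 0.33 (adjusted p = 0.00547, edgeR). That library is in neither group compared here. It enters through steps shared by all libraries: the filter, the scaling, the estimate of spread and the adjustment.

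MVK (ENSG00000110921, chromosome 12, 110011060 to 110035067, plus strand) encodes mevalonate kinase, which puts the first phosphate on mevalonate. It was at 36.2, 25.9 and 27.7 CPM in shCont, 56.5, 56.8 and 57.3 in shp16, and 71.7, 64.8 and 71.7 in shp16+shATR. The shp16 libraries differed from each other by less than 1 CPM, and the groups did not overlap. MVK rose by 0.92 ± 0.13 from shCont to shp16 (adjusted p = 0.000692, edgeR), and by 1.08 without shCont replicate 1 (adjusted p = 3.12e-06). The step to shp16+shATR was 0.29 ± 0.13 (95% interval 0.01 to 0.57, adjusted p = 0.232), and it passed without shCont replicate 1 (adjusted p = 0.00956, edgeR). MVK overlaps MMAB, a gene of cobalamin metabolism read from the other strand, over 620 bases. MMAB was at 0.33 and 0.36 on the log2 scale in the 2 comparisons and passed in neither (adjusted p = 0.29 and 0.337, edgeR).

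PMVK (ENSG00000163344, chromosome 1, 154897210 to 154909467, minus strand) encodes phosphomevalonate kinase, which adds the second phosphate. It was at 45.6, 26.6 and 26.1 CPM in shCont, 31.2, 24.0 and 25.9 in shp16, and 20.4, 21.5 and 25.4 in shp16+shATR. PMVK was the only gene of the 9 with a mean that went down at each step, and 1 library carried much of it, since shCont replicate 1 was at 45.6 and the other shCont libraries lay within the range of shp16. The log2 fold change from shCont to shp16 was -0.28 (95% interval -0.72 to 0.17, adjusted p = 0.394, edgeR), and without shCont replicate 1 it was 0.03 (adjusted p = 0.889). From shp16 to shp16+shATR it was -0.27 (95% interval -0.72 to 0.18, adjusted p = 0.528). From shCont to shp16+shATR it was -0.55 (95% interval -0.99 to -0.10, adjusted p = 0.0753). Every shp16+shATR library lay below every shCont library there, as for 21.5% of all genes. That value was -0.23 without shCont replicate 1 (adjusted p = 0.184, edgeR) and -0.69 without shCont replicate 3, where it passed (adjusted p = 0.0345). It passed as lower in 2 of 18 alternatives, the fit without shCont replicate 3 among them.

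MVD (ENSG00000167508, chromosome 16, 88718343 to 88729569, minus strand) encodes the decarboxylase that turns mevalonate diphosphate into isopentenyl diphosphate. It was at 45.6, 30.4 and 26.3 CPM in shCont, 47.4, 46.3 and 48.4 in shp16, and 73.4, 73.1 and 71.3 in shp16+shATR. The shp16 libraries began just above shCont replicate 1, and the shp16+shATR libraries lay far above both groups. The log2 fold change from shCont to shp16 was 0.47 ± 0.17 (95% interval 0.10 to 0.84, adjusted p = 0.0838, edgeR). Without shCont replicate 1 it was 0.73 and passed (adjusted p = 7.04e-05, edgeR). The step to shp16+shATR was 0.62 ± 0.17 (adjusted p = 0.0508), just outside the threshold, and it passed in 9 of 18 alternatives. These included DESeq2 (adjusted p = 0.00871), the 2 groups alone (adjusted p = 0.000213, edgeR) and the fits without shCont replicate 1 (adjusted p = 9.64e-05) or 3 (adjusted p = 0.0236). From shCont to shp16+shATR MVD rose by 1.09 (adjusted p = 0.000841, edgeR), and by 1.35 without shCont replicate 1 (adjusted p = 3.65e-07, edgeR).

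**Figure D4:**
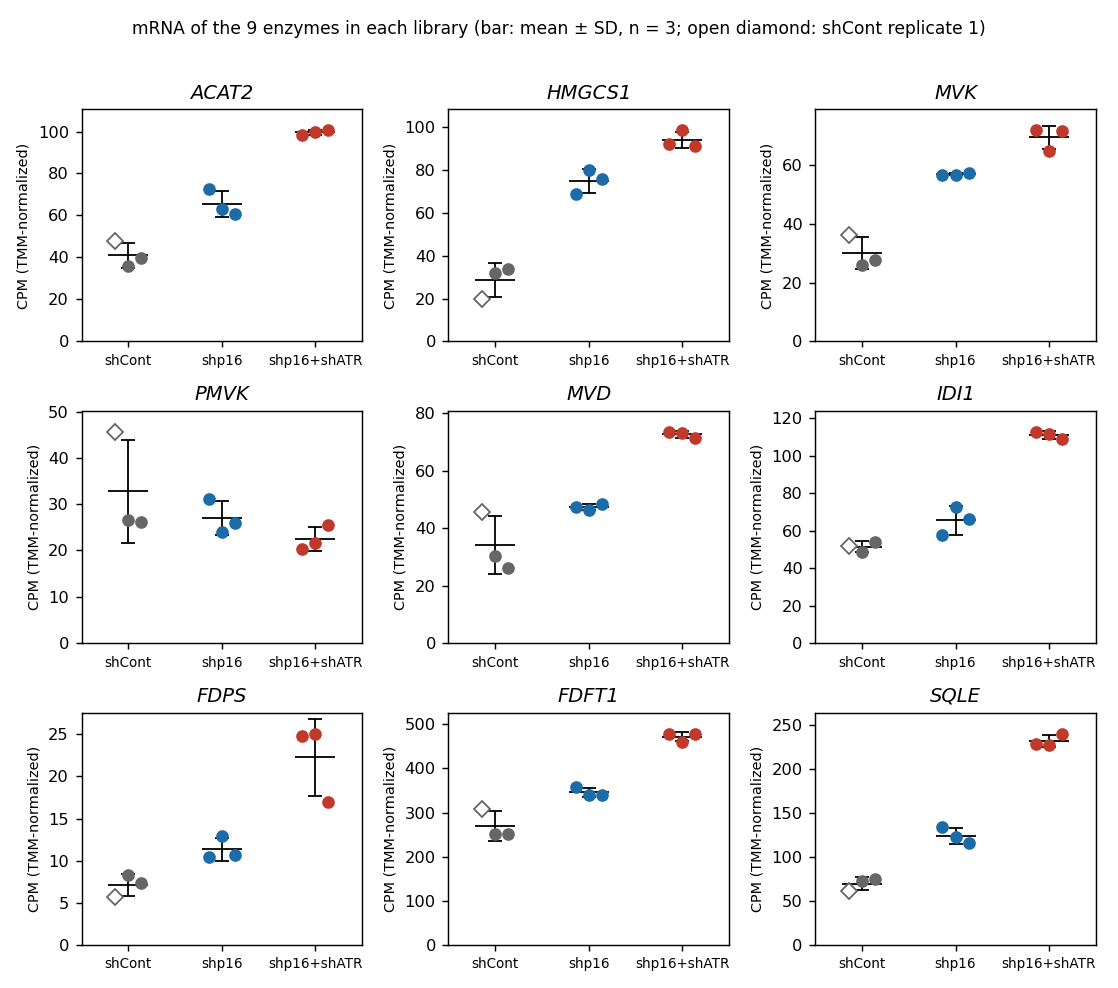
CPM of each enzyme gene in every library (y axis, TMM-normalized CPM, points are libraries, bars mean ± SD of 3, open diamond shCont replicate 1). shCont replicate 1 is the highest shCont library for ACAT2, MVK, PMVK, MVD and FDFT1 and the lowest for HMGCS1, FDPS and SQLE, and the shp16+shATR libraries lie above both other groups in every panel but PMVK.

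IDI1 (ENSG00000067064, chromosome 10, 1085848 to 1095110, minus strand) encodes the isomerase that makes dimethylallyl diphosphate, the primer to which further isoprene units are added. It was at 51.9, 48.4 and 54.2 CPM in shCont, 57.5, 72.8 and 66.2 in shp16, and 113, 112 and 109 in shp16+shATR. The shp16 libraries lay slightly above shCont on this scale and overlapped with them in FPKM, whereas the shp16+shATR libraries stood well clear of both. From shCont to shp16 the log2 fold change of 0.35 ± 0.11 did not pass (95% interval 0.11 to 0.59, adjusted p = 0.0559, edgeR). It passed without shCont replicate 1 (0.35, adjusted p = 0.0185, edgeR) and without shp16 replicate 1 (0.43, adjusted p = 0.029). IDI1 rose by 0.76 ± 0.11 from shp16 to shp16+shATR (adjusted p = 0.00277, edgeR), and that call held in all 18 alternatives. IDI2, its muscle isozyme, was too low to be tested, and IDI2-AS1, which overlaps IDI1 on the other strand, had a mean of 22.3 counts against 1541 for IDI1.

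FDPS (ENSG00000160752, chromosome 1, 155278539 to 155290457, plus strand) encodes farnesyl diphosphate synthase, which condenses isoprene units to farnesyl diphosphate and is the target of nitrogen-containing bisphosphonates. It was at 5.66, 8.27 and 7.29 CPM in shCont, 10.4, 12.9 and 10.7 in shp16, and 24.8, 25.1 and 17.0 in shp16+shATR. The groups did not overlap, and library c lay below the other shp16+shATR libraries. FDPS rose by 0.68 ± 0.19 from shCont to shp16 (adjusted p = 0.0343, edgeR) and by 0.97 ± 0.18 with shATR (adjusted p = 0.0106), the largest step of the 9 in the second comparison. The first call was lost without shCont replicate 3, without any 1 of the shp16 libraries and without shp16+shATR library a, at adjusted p values of 0.0511 to 0.124, and it held at 0.54 without shCont replicate 1 (adjusted p = 0.0461, edgeR). The second was lost without shp16 replicate 1 or 3 and without shp16+shATR library a or b, at 0.0531 to 0.0691. FDPS had the fewest counts of the 9, 2467 over all libraries. Its level is uncertain, since 7 processed copies elsewhere in the genome are listed in the table, with 20 counts in all, and how reads shared with them were counted is not stated. RUSC1-AS1 overlaps FDPS over 3804 bases on the other strand, and it rose by 1.08 from shp16 to shp16+shATR (adjusted p = 0.00817, edgeR), so the 2 rows cannot be told apart where strand was not used.

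FDFT1 (ENSG00000079459, chromosome 8, 11653082 to 11696818, plus strand) encodes squalene synthase, the first enzyme committed to sterols. It was at 308, 250.2 and 250.2 CPM in shCont, 358, 339.8 and 339 in shp16, and 478, 460.4 and 477 in shp16+shATR. The groups did not overlap, and FDFT1 had the smallest total change of the 8 genes that rose from shCont to shp16+shATR, 0.81 (adjusted p = 0.000355, edgeR). The step from shCont to shp16 was 0.36 ± 0.11 (adjusted p = 0.048), close to the threshold. It passed at 0.46 without shCont replicate 1 (adjusted p = 0.000811, edgeR) and was lost without any 1 of the other 8 libraries, at adjusted p values of 0.081 to 0.149. The step to shp16+shATR was 0.45 ± 0.11 (adjusted p = 0.0331), and it was lost without any 1 of the shp16 or shp16+shATR libraries, at 0.0571 to 0.144.

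SQLE (ENSG00000104549, chromosome 8, 126010739 to 126034525, plus strand) encodes squalene epoxidase, the oxygen-requiring step before ring closure. It was at 61.4, 72.9 and 74.7 CPM in shCont, 134, 122 and 116 in shp16, and 229, 228 and 239.9 in shp16+shATR. Each group stood clear of the next by more than its own range. SQLE rose by 0.83 ± 0.11 from shCont to shp16 (adjusted p = 0.000468, edgeR), by 0.90 ± 0.11 from shp16 to shp16+shATR (adjusted p = 0.00112), and by 1.74 over both (adjusted p = 2.13e-06), the most of the 9 genes. The first was 0.74 without shCont replicate 1 (adjusted p = 6.86e-05, edgeR), and the second call held in all 18 alternatives. LSS, the lanosterol synthase that closes the rings of squalene epoxide and is the next enzyme of the route, was at 129, 126 and 115 CPM in shCont, 162, 175 and 183 in shp16, and 207, 208 and 194 in shp16+shATR. LSS rose by 0.49 from shCont to shp16 (adjusted p = 0.00671, edgeR). Its further step was 0.23 (adjusted p = 0.222, edgeR), and 0.23 again without shCont replicate 1, where it passed (adjusted p = 0.034).

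The genes around the route were described from lists chosen with earlier results of these data known. Of the 10 enzymes from lanosterol synthase to cholesterol, 7 were called higher and 0 lower in shp16 against shCont, with a median log2 fold change of 0.59, where 7.23% of all genes were called higher. The highest was CYP51A1, the lanosterol demethylase, at 1.34, from a low level of 2.16 to 4.21 CPM in shCont. In shp16+shATR against shp16, 4 of the 10 were called higher and 0 lower, namely TM7SF2 at 2.01, DHCR7 at 0.90, MSMO1 at 0.78 and SC5D at 0.57, with a median of 0.38, where 2.73% of all genes were called higher. TM7SF2 was also low, at 3.27 to 3.51 CPM in shp16 and 12.3 to 15.4 in shp16+shATR. Without shCont replicate 1 the counts called higher were 8 and 6 of 10, where the shares of all genes were 13.4% and 8.94%.

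The isoprenoid branches, which lead to products other than sterols, were a list of 14 genes that included enzymes acting on prenylated proteins. Of these 14, 0 were called higher and 1 lower in each of the first 2 comparisons, with medians of 0.07 and 0.02. The shares of all genes called lower there were 7.59% and 3.49%, so 1 of 14 is near the background. RABGGTA, a subunit of the transferase that prenylates Rab proteins, fell by 0.70 from shCont to shp16 (adjusted p = 0.0125, edgeR). ICMT, which methylates prenylated proteins, fell by 0.67 from shp16 to shp16+shATR (adjusted p = 0.00427, edgeR). Without shCont replicate 1, 4 of the 14 were called higher and 4 lower in the second comparison, in a fit where the calls over all genes went from 6.22% to 19.9%, and the list's median was again 0.02.

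Supply and control of the route differed from gene to gene. ACSS2, which makes cytosolic acetyl-CoA from acetate, was at 50.3, 48.2 and 51.8 CPM in shCont, 72.8, 75.1 and 75.9 in shp16, and 119, 124 and 125 in shp16+shATR, and it rose at both steps, by 0.57 and 0.72 on the log2 scale (adjusted p = 0.00173 and 0.00142, edgeR). ACLY, which makes it from citrate, rose by 0.62 from shCont to shp16 and was at -0.30 in the next step (adjusted p = 0.29, edgeR), where without shCont replicate 1 it passed as lower (adjusted p = 0.02). Of the 8 sterol regulators, 2 were called higher and 0 lower from shCont to shp16, and 1 higher and 0 lower at the next step, where 7.23% and 2.73% of all genes were called higher. INSIG1 rose by 1.28 and then by 1.68 on the log2 scale, and SREBF2 rose by 0.57 in the first comparison, from 450 to 469 CPM in shCont to 659 to 717 in shp16. SREBF2 was at 683 to 706 CPM in shp16+shATR, within the range of shp16. Without shCont replicate 1, 2 regulators were called higher and 1 lower at the first step, then 4 higher and 0 lower at the next, with 25.9% and 19.9% of all genes called in those fits.

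**Figure D5:**
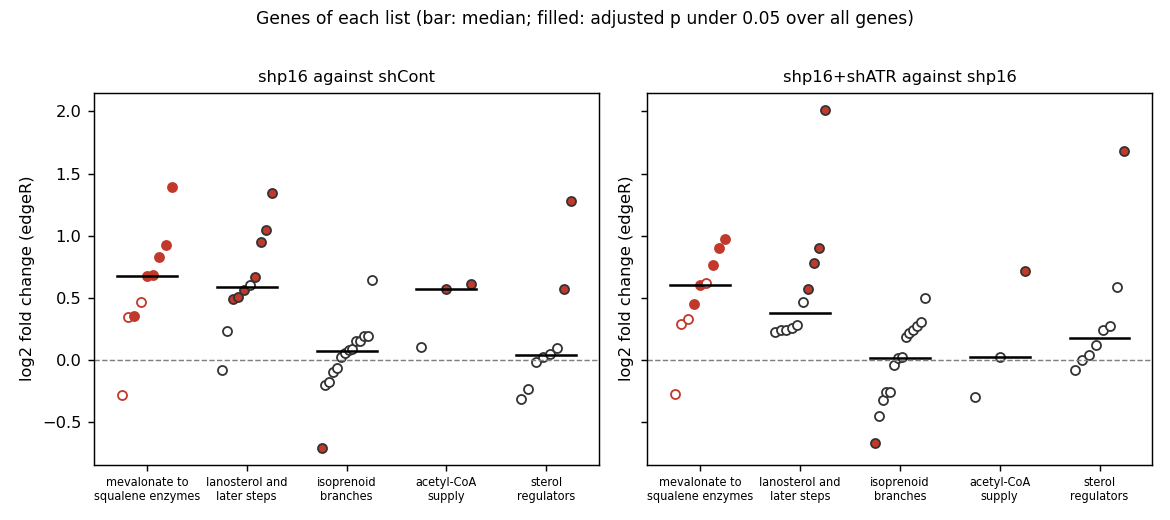
Log2 fold change of every tested gene of each list at the step from shCont to shp16 and at the step from shp16 to shp16+shATR (y axis, log2 scale, edgeR, points are genes, filled where the adjusted p was under 0.05 over all genes tested, bar at the median). The enzymes up to squalene epoxide and those from lanosterol on have medians of 0.67 and 0.59 in the first panel and 0.60 and 0.38 in the second, and the isoprenoid branches have medians of 0.07 and 0.02.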

How the data were processed

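RNA of 9 SKMEL28 libraries (3 groups of 3) was extracted with Trizol. Library preparation, sequencing and bioinformatics were done by Novogene. The authors deposited raw counts per gene and FPKM, which equalled counts scaled by length and total within a relative difference of 4.22e-07. The submitters' processing notes name STAR 2.6.1, DESeq2 and GRCh38, with no role. Gene coordinates are printed as deposited: the last gene on chromosome 1 ends at 249231242, where the last RefSeq gene of GRCh38.p14 ends at 248937099, so they are not on GRCh38 and their build is not stated. Whether counting used strand is not given in the sources used here. The deposited count columns of shp16+shATR have 1 name in common, so the letters a, b and c stand for them, with no replicate number.

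Counts were filtered with filterByExpr, scaled by TMM and tested with edgeR 4.0.16 (quasi-likelihood, all 9 libraries in 1 fit, Benjamini-Hochberg adjustment, adjusted p under 0.05), in R 4.3.3. DESeq2 1.42.0 and limma 3.58.1 served as alternatives, beside other scalings and filters, the 2 groups alone, a replicate block, log2(FPKM + 1) and log2(FPKM + 0.1), and leaving out each library. Total counts of 17314662 to 23588174 set the counting precision. The genes named are the 9 enzymes, the hairpin targets, LSS, up to 4 genes of each list with the largest change among those that passed, and the 5 genes outside the 9 whose centred log2 CPM lay nearest to the members' median. Overlapping genes and those that a left-out library turned were added after their values were seen. The members and lists were chosen with earlier results of these data known.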

Additional observations from a re-analysis of the deposited data

How the results depend on the processing

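Over 18 alternatives for each value, 425 of 486 values of single enzymes kept direction and side of the threshold, 39 lost the call, 21 gained it and 1 changed sign: PMVK from shCont to shp16 ran from -0.42 (without shCont replicate 3) to 0.031 (without shCont replicate 1) when 1 library was left out. Scaling moved the median of all genes by less than 0.1. Upper-quartile scaling called 922 of 2397 genes higher in shp16 against shCont (TMM: 1141 of 2339) and 533 of 984 in shp16+shATR against shp16 (TMM: 430 of 981). The number of genes called was 2339 in shp16 against shCont and 1186 with the 2 groups alone. It was 981 in shp16+shATR against shp16, 1508 with DESeq2 and 2878 with the 2 groups alone. Leaving out 1 library gave 1344 to 4192, 292 to 3223 and, where 3724 were called in shp16+shATR against shCont, 2354 to 5395, each highest without shCont replicate 1. Of the 9 enzymes, 5 were called in shp16+shATR against shp16, 8 with the 2 groups alone, and 2 to 8 when 1 library was left out. The lowest count came without shp16 replicate 3 or library a or b, 3 came without shp16 replicate 1 or 2 or library c, and 8 without shCont replicate 1. Members called in shp16 against shCont numbered 4 to 8 and in shp16+shATR against shCont 8 to 9 in the same way. The median of the members in shp16+shATR against shCont was 1.21, and 1.12 to 1.37 without 1 library, the highest again without shCont replicate 1.

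Deviations of same-numbered libraries from their group means had r of -0.12, 0.04 and -0.18 for shCont with shp16. For shp16 with shp16+shATR the r were -0.11, 0.29 and -0.30, and pairs of unlike number ran from -0.37 to 0.43. Deviations from a mean of 3 libraries constrain each other, so these r cannot decide whether libraries of the same number were paired. With the replicate block, edgeR called 423 genes and 2 enzymes in shp16 against shCont, where HMGCS1 and MVK passed and ACAT2 (adjusted p = 0.0595) and SQLE (adjusted p = 0.0536) did not. Limma on log2(FPKM + 1) with the block called 481 genes and 5 enzymes in shp16+shATR against shp16. At 17314662 to 23588174 counts per library, FDPS had the fewest counts of the enzymes and so the least counting precision. How reads shared with its processed copies were counted is not stated, so its low counts cannot be put down to depth alone.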

Other observations

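The genes outside the route whose pattern over the 9 libraries lay nearest to the median of the 9 enzymes were found by the root mean square difference of centred log2 CPM, among 10728 genes with a mean of at least 5 CPM. They were TUBA1A, an alpha-tubulin, at 0.068, ASAP3, an Arf GTPase-activating protein, at 0.094, DAZAP2 at 0.096, ACSS2 at 0.11 and WARS, the cytosolic tryptophanyl-tRNA synthetase, at 0.12, where the median over those genes was 0.545. ACSS2 alone of these is an enzyme that feeds the route. Among the 9 enzymes themselves the same difference was 0.068 for ACAT2, 0.137 for MVD, 0.167 for FDFT1, 0.175 for MVK and 0.179 for IDI1. It was larger for SQLE at 0.265, FDPS at 0.321 and HMGCS1 at 0.446, and PMVK at 0.721 lay farther from the common pattern than the median gene. All of these values share the same libraries and were picked or described by that pattern, so they carry no test.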
